A study of Homo sapiens with 6 samples.

Results

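The nuclear genes of the mitochondrial respiratory chain were followed in ChIP-seq libraries of G401 cells. A gene was included if its name in the count table followed a fixed pattern and it had any input count. The pattern covered NDUF subunits and NDUFAF assembly factors of complex I, SDHA to SDHD of complex II and UQCR subunits of complex III. For complex IV it covered names from COX4 to COX8 with at most a letter from A to C and a digit after the number. The subunit names COX4I1, COX4I2, COX7A2L and NDUFAB1 did not follow the pattern, and these genes were counted with other genes of the chain. Of 56638 genes in the table, 70 had such a name and 65 had input counts. They comprised 7 core subunits, 27 accessory subunits and 7 assembly factors of complex I, 4 genes of complex II, 8 of complex III and 12 of complex IV. The grouping followed gene symbols, so NDUFA4, first described in complex I and later placed in complex IV, was counted with complex I.

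G401 is a malignant rhabdoid tumor line that lacks SMARCB1, a subunit of the SWI/SNF chromatin remodeler, and SMARCB1 had 0 input counts in both treatments. This does not by itself show the loss, as 2012 of 19153 protein-coding genes had 0 input counts in DMSO. The cells received DMSO or 3 µM MAK683 for 3 days. MAK683 binds the EED subunit of PRC2, the complex that methylates H3K27. Each treatment had 1 library of H3K27me3, 1 of H3K4me3 and 1 of input, which is chromatin that saw no antibody, so the differences have no replicate behind them and were not tested. Library totals were between 13308099 and 21281877 counts. The values are whole-number read counts over a gene. The methods describe a Drosophila spike-in, and whether its scaling entered these counts was not tested. The counts were read as the share of its library that a gene took, not as how much of a modification it held. Fewer cells with a mark and less mark in each cell cannot be told apart in these bulk libraries.

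The respiratory chain passes electrons from NADH through complex I, or from succinate through complex II, to complex III, cytochrome c and complex IV, where oxygen is reduced. Nearly all of its subunits are encoded in the nucleus and are made in most cells, while a few subunits of complex IV have isoforms restricted to muscle or testis. H3K4me3 lies at the promoters of active genes, and H3K27me3 lies over genes silenced by PRC2. The factors NRF1, GABP (of the ETS family) and YY1 are known to bind promoters of respiratory chain genes.

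Promoter windows of 250 bases before to 50 bases after a start site were matched by symbol for 49 of the 65 genes in RefSeq (GRCh38.p14). Members whose symbol had several windows were left out, while such windows stayed in the comparison sets. The letters GCATGCGC (the core of the NRF1 site) were present on either strand in 11 windows (22.4%), compared with 3.74% of 22199 protein-coding promoters and 3.05% of all 35116 promoters of the same length. The letters CCGGAAG (ETS) were present in 12 windows (24.5%), compared with 12.8% of protein-coding and 10.3% of all promoters. The letters AAGATGGCG (YY1) were present in 6 windows (12.2%), compared with 2.41% and 1.75%. At least 1 of these motifs was present in 21 windows (42.9%), compared with 17.5% of protein-coding promoters. The median number of CpG dinucleotides was 23 in the members, 21 in protein-coding promoters and 14 in all promoters. The motifs were searched separately, so an overlap would count for each of them. A match shows only that the letters are present, and no binding of these factors was measured.

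The windows below are on GRCh38.p14, 5′ to 3′ on the strand of the gene, with motif letters in capitals. COX5B, a subunit of complex IV, is shown for an NRF1 match and both of its ETS matches, and SDHB, the iron-sulfur subunit of complex II, as the 1 member that held all 3 motifs. COX6A1 and COX6B1 are widely expressed isoforms, and they are set beside COX6A2 (heart and skeletal muscle) and COX6B2 (testis), in which no motif was found.
COX5B, chr2:97645812-97646111 (+ strand): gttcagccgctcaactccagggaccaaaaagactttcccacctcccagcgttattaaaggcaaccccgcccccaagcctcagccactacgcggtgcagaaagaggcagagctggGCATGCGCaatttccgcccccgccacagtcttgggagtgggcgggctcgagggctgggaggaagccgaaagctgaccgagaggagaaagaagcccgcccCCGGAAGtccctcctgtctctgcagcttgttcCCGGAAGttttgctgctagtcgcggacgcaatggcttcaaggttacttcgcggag
SDHB, chr1:17053983-17054282 (- strand): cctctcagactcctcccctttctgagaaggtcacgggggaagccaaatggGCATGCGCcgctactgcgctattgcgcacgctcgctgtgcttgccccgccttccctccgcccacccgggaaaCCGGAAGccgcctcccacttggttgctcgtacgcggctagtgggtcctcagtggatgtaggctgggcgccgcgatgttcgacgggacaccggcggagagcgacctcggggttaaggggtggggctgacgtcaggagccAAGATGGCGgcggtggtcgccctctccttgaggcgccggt
COX6A1, chr12:120437863-120438162 (+ strand): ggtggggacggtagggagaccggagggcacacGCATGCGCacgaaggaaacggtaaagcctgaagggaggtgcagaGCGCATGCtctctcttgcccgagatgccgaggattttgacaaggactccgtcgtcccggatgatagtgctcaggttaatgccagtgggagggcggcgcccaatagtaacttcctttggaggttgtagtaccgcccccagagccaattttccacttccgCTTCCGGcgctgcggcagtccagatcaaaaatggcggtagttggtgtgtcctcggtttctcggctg
COX6A2, chr16:31428311-31428610 (- strand): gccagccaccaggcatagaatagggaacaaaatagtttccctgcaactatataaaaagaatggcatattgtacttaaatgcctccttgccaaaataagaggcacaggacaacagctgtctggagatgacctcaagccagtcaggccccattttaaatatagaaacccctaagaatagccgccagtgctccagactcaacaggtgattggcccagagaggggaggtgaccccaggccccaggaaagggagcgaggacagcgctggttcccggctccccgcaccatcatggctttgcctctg
COX6B1, chr19:35648073-35648372 (+ strand): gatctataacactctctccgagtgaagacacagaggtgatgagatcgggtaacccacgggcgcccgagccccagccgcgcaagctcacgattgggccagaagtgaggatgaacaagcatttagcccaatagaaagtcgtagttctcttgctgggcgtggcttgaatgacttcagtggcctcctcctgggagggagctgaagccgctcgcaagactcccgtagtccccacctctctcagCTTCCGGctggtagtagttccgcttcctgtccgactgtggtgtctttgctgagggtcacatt
COX6B2, chr19:55354670-55354969 (- strand): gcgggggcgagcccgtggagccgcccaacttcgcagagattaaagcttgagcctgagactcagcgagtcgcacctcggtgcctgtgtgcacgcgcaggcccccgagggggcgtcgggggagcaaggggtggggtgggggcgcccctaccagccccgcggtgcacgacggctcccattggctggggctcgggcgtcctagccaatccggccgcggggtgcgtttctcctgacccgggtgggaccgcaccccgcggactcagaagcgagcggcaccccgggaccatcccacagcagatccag

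The window of COX6A1 held NRF1 letters on both strands and ETS letters on the reverse strand, and that of COX6B1 held ETS letters on the reverse strand. The CpG counts were 22 for COX6A1, 5 for COX6A2, 16 for COX6B1 and 31 for COX6B2, so the isoforms without a motif included both a CpG-poor and a CpG-rich window. Members without a window, or left out because their symbol had several, included COX6C, COX7A1, COX7A2, NDUFA4, NDUFA5, NDUFAF3, NDUFAF6, NDUFB5, NDUFB9, NDUFC1, NDUFC2, NDUFS1, NDUFS5, SDHC and UQCRB.

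In DMSO, most respiratory chain genes carried H3K4me3. Enrichment was expressed as the log2 ratio of the mark to input after each library was divided by its total, with 1 count added, for genes with at least 20 input counts in both treatments together. Of the 60 members that passed, 46 (76.7%) were at least 2-fold above input, compared with 22.2% of 29528 genes and with 48.2% of 9927 protein-coding genes of 2 to 50 kb. The median of the members was 1.79 (95% interval of the median 1.48 to 2.58), compared with -0.34 over all genes and 0.92 over protein-coding genes of 2 to 50 kb. The counting interval lay above input for 50 members and below it for 4. Of 29528 genes, it lay above input for 9899 and below it for 12566. Of 9927 protein-coding genes of 2 to 50 kb, it lay above input for 6050 and below it for 2579. The members as a whole took 0.267% of the H3K4me3 counts and 0.126% of the input counts in DMSO.

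The H3K4me3 count varied less among the members than the input count. The fold between the 10th and 90th percentile was 46.2 for input and 8.47 for H3K4me3 in DMSO, and 52 of 65 members had between 400 and 1600 H3K4me3 counts. The counts of both libraries were related across genes (Spearman rho of 0.783, n = 65 genes that share both libraries). The ratio to input was lower in longer genes (rho of -0.708, n = 60). H3K4me3 is known to lie at the start of a gene, while input reads fall along all of it, so a ratio to input cannot be read as an order of promoter levels between genes of unequal length. The 6 members over 100 kb (COX7B2, NDUFAF2, NDUFS4, NDUFA12, NDUFAF6 and NDUFA10) were the 6 members below input.

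**Figure D1:**
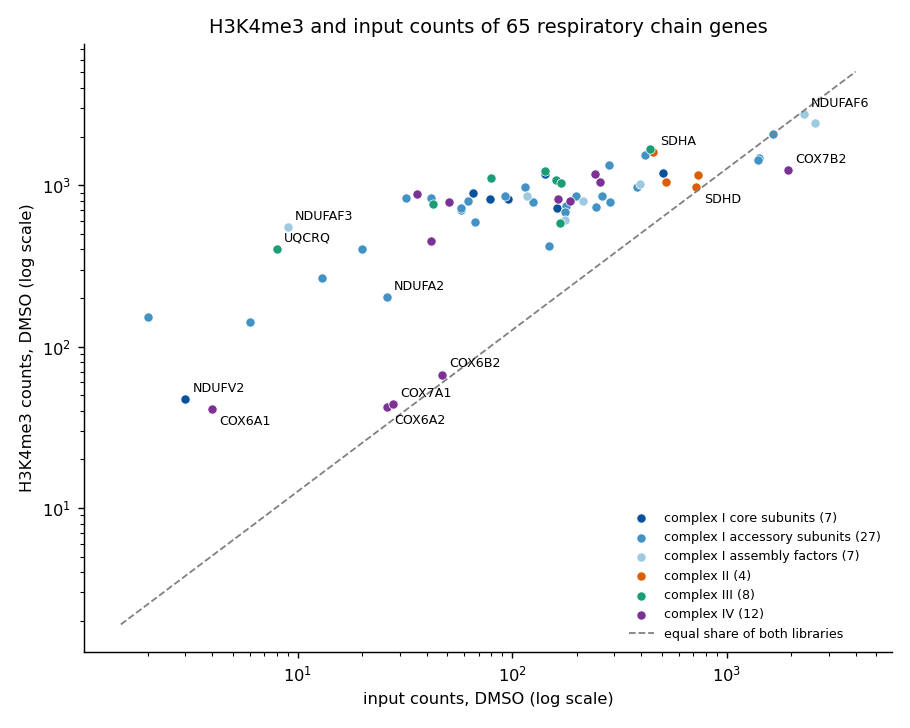
H3K4me3 counts against input counts in DMSO for 65 genes (both axes on log scales), with complexes in colors and a dashed line at equal shares of both libraries. Most genes lie between 400 and 1600 H3K4me3 counts over a wide range of input, and COX6A2, COX7A1 and COX6B2 lie near the dashed line with 42, 44 and 67 counts.

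Among the core subunits of complex I, which carry the redox centers, the median H3K4me3 over input was 2.72 in DMSO (6 of 7 genes passed the filter). NDUFS3, a core subunit near the ubiquinone site, was highest at 3.40 (counting interval 3.06 to 3.81). It had 896 H3K4me3, 51 H3K27me3 and 66 input counts in DMSO, and 681, 30 and 93 counts in MAK683. NDUFS1, an iron-sulfur subunit, was lowest at 0.90 (0.75 to 1.06). It had 1188 H3K4me3, 246 H3K27me3 and 503 input counts in DMSO, and 859, 194 and 432 counts in MAK683. NDUFS1 had more H3K4me3 counts than NDUFS3, and the lower ratio came with a higher number of input counts over a longer gene.

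The accessory subunits of complex I, which surround the core, had a median of 1.90 (25 of 27 genes). NDUFB10 (chr16:2009539-2011976, hg19) was highest at 4.33 (3.86 to 4.93). It had 835 H3K4me3, 20 H3K27me3 and 32 input counts in DMSO, and 648, 8 and 43 counts in MAK683. NDUFS4 (chr5:52856463-52979168) was lowest at -0.30 (-0.41 to -0.19). It had 1440 H3K4me3, 698 H3K27me3 and 1404 input counts in DMSO, and 1219, 695 and 1670 counts in MAK683.

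The assembly factors, which help to build complex I and are not part of it, had a median of 1.24 (6 of 7 genes). NDUFAF4 was highest at 2.53 (2.26 to 2.83). It had 858 H3K4me3, 63 H3K27me3 and 117 input counts in DMSO, and 641, 48 and 137 counts in MAK683. NDUFAF2, which spans 209 kb, was lowest at -0.43 (-0.51 to -0.35). It had 2414 H3K4me3, 1376 H3K27me3 and 2571 input counts in DMSO, and 2233, 1133 and 2827 counts in MAK683.

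Complex II, succinate dehydrogenase, had the lowest median of the complexes at 0.49 (4 genes), and its genes span 33.2 to 48.8 kb. SDHA, the flavoprotein subunit, was highest at 1.48 (1.33 to 1.63). It had 1595 H3K4me3, 274 H3K27me3 and 453 input counts in DMSO, and 1276, 234 and 571 counts in MAK683. SDHD, a membrane anchor, was lowest at 0.09 (-0.05 to 0.23), and its interval included the input level. It had 976 H3K4me3, 419 H3K27me3 and 724 input counts in DMSO, and 862, 322 and 864 counts in MAK683. The H3K4me3 counts of all 4 genes, 976 to 1595, were above the median of 822 over the members, and so were their input counts, 453 to 734, above the median of 149. SDHA has near-identical pseudogene copies. SDHAP1 had 609 H3K4me3 and 284 input counts in DMSO and SDHAP3 had 1001 and 318, so the division of reads among these 3 genes is uncertain.

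Complex III, which passes electrons from ubiquinol to cytochrome c, had a median of 2.58, and its 8 genes were all at least 2-fold above input in both treatments. UQCRQ, a small accessory subunit (chr5:132202322-132204539), had the highest ratio of all 60 members at 5.15 (4.32 to 6.53), which rests on 8 input counts. It had 402 H3K4me3, 4 H3K27me3 and 8 input counts in DMSO, and 300, 8 and 22 counts in MAK683. UQCRB was lowest at 1.46 (1.21 to 1.72). It had 582 H3K4me3, 84 H3K27me3 and 167 input counts in DMSO, and 504, 55 and 125 counts in MAK683.

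Complex IV, cytochrome c oxidase, had a median of 1.76 and the widest range (11 of 12 genes). COX7C, a small subunit, was highest at 4.23 (3.79 to 4.79). It had 877 H3K4me3, 18 H3K27me3 and 36 input counts in DMSO, and 665, 22 and 35 counts in MAK683. COX7B2 was lowest of all 60 members at -0.98 (-1.08 to -0.88). The other complex IV members at or near input were isoforms of muscle or testis as well, as described next.

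**Figure D2:**
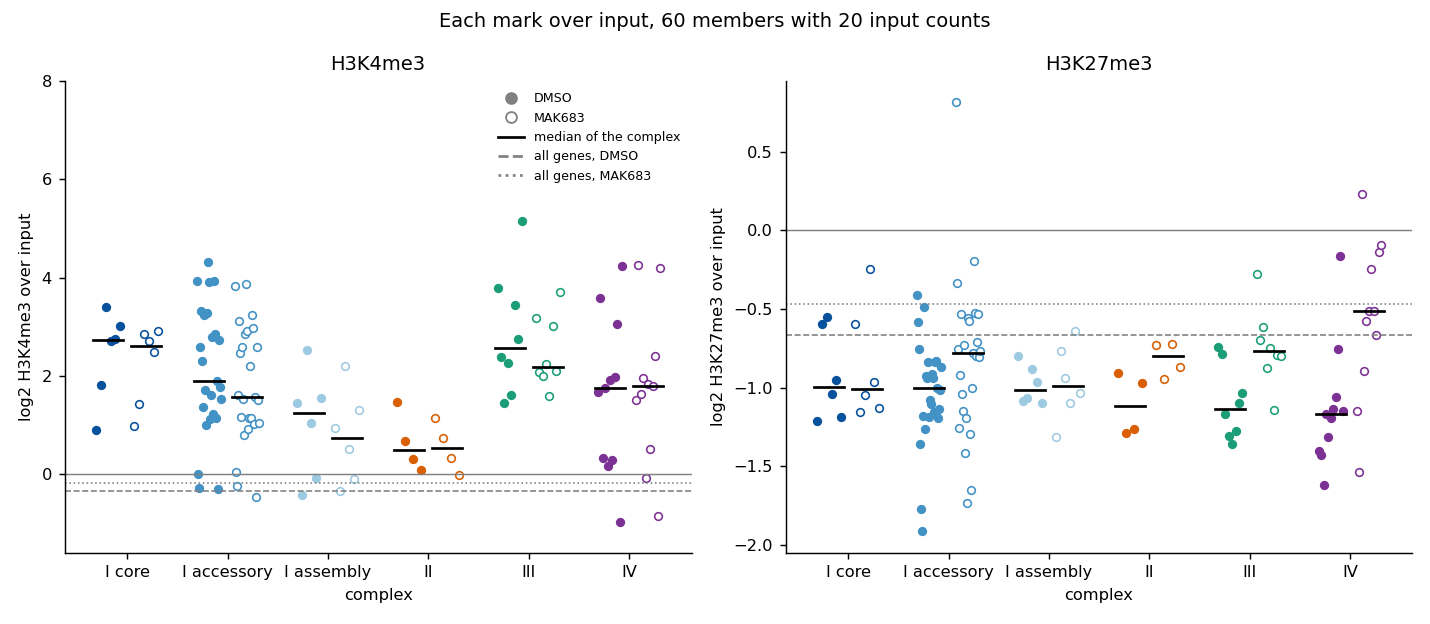
Log2 ratio of H3K4me3 and of H3K27me3 to input for the 60 members that passed the filter, by complex, with DMSO as filled and MAK683 as open points, black bars at the median of each complex and lines at the median of all genes. H3K4me3 lies mostly above 0, with a median of 1.79 in DMSO, and H3K27me3 lies below 0 except for NDUFA1 and COX6A2 in MAK683.

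Isoforms of complex IV with a tissue-restricted expression were near or below input in H3K4me3 in DMSO. COX6A2, the isoform of heart and skeletal muscle (chr16:31439052-31439681), had 42 H3K4me3, 9 H3K27me3 and 26 input counts in DMSO and 30, 7 and 9 counts in MAK683. Its H3K4me3 over input was 0.33 (-0.39 to 1.12) in DMSO and 1.62 (0.62 to 2.99) in MAK683, where the input count was 9. Its widely expressed partner COX6A1 had 41 H3K4me3, 0 H3K27me3 and 4 input counts in DMSO and 36, 1 and 4 counts in MAK683. A total of 4 input counts over 2.65 kb is low for its length, and COX6A1 did not pass the filter, so this pair was not compared by ratio.

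The other isoform pairs could be compared. COX6B2, a testis isoform, had 67 H3K4me3, 21 H3K27me3 and 47 input counts in DMSO and 45, 21 and 47 counts in MAK683. Its partner COX6B1 had 802, 94 and 187 counts in DMSO and 625, 58 and 160 counts in MAK683. H3K4me3 over input in DMSO was 0.16 (-0.39 to 0.74) for COX6B2 and 1.76 (1.53 to 2.00) for COX6B1, and the counting intervals did not overlap. COX6B2 was near input although its promoter window has 31 CpG dinucleotides, more than the 16 of COX6B1.

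COX7A1, the other muscle isoform, had 44 H3K4me3, 14 H3K27me3 and 28 input counts in DMSO and 46, 18 and 32 counts in MAK683. Its partner COX7A2 had 822, 89 and 164 counts in DMSO and 568, 77 and 162 counts in MAK683. The ratios in DMSO were 0.30 (-0.40 to 1.05) for COX7A1 and 1.98 (1.74 to 2.24) for COX7A2, without overlap of the intervals. The tissue isoform was the shorter gene in both pairs, at 5.41 kb against 10.5 kb for COX6B2 and COX6B1 and 1.53 kb against 12.6 kb for COX7A1 and COX7A2.

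COX7B2, a testis isoform that spans 174 kb (chr4:46736844-46911262), had 1238 H3K4me3, 1962 H3K27me3 and 1931 input counts in DMSO and 1293, 1439 and 2316 counts in MAK683. It was the 1 member with more H3K27me3 than H3K4me3 after scaling to equal library totals, in both treatments. Its partner COX7B, on the X chromosome, had 448, 28 and 42 counts in DMSO and 344, 27 and 64 counts in MAK683. The ratio of H3K4me3 to input in DMSO was 3.05 (2.62 to 3.57) for COX7B, and the lengths of this pair differ too much for the ratios to be set against each other. Without the 4 tissue isoforms the median of the members was 1.91, and 46 of 56 were at least 2-fold above input.

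**Figure D3:**
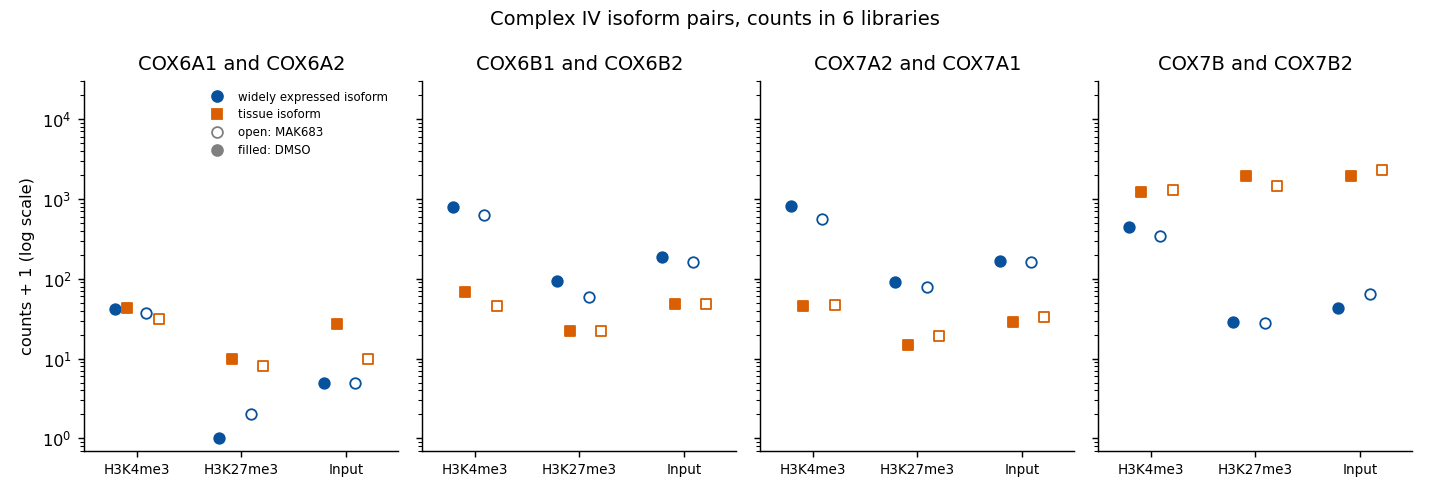
Counts plus 1 (log scale) in the 6 libraries for pairs of complex IV isoforms, with the widely expressed isoform as circles, the tissue isoform as squares, DMSO filled and MAK683 open. COX6B1 and COX7A2 have 568 or more H3K4me3 counts in both treatments, and COX6B2 and COX7A1 have 67 or fewer.

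H3K27me3 was at a low level over the respiratory chain genes before PRC2 was inhibited. In DMSO, 0 of 60 members were above input (2 with median-of-ratios size factors), compared with 30.8% of 29528 genes and 19.1% of protein-coding genes of 2 to 50 kb. Their median was -1.07 (-1.15 to -0.95), compared with -0.67 over all genes and -0.83 over protein-coding genes of 2 to 50 kb. Genes that carried H3K4me3 at least 2-fold over input on average across both treatments (6328 H3K4me3-marked genes) had a median of -0.97, close to that of the members, and 9.43% of them were above input. The counting interval lay below input for 16124 of 29528 genes and for 5012 of the 6328 H3K4me3-marked genes. Among the 60 members, it lay below input for 56 and reached it for 4. Values ranged from -1.92 for NDUFA4 to -0.16 for COX7B2, and there was little relation to gene length (rho of 0.14, n = 60).

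By H3K27me3 over input in DMSO, the 5 highest members were COX7B2, NDUFA1, NDUFA6, NDUFS3 and NDUFA10. COX7B2 was at -0.16 (-0.26 to -0.07), close to its share of input. NDUFA1, an X-linked accessory subunit of complex I, was at -0.41 (-1.44 to 0.59). It had 404 H3K4me3, 17 H3K27me3 and 20 input counts in DMSO and 284, 23 and 19 counts in MAK683, and the width of its interval follows from these low counts. NDUFA6 was at -0.48 (-1.08 to 0.09), with 704 H3K4me3, 47 H3K27me3 and 58 input counts in DMSO and 532, 26 and 87 counts in MAK683.

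NDUFS3 was at -0.55 (-1.12 to -0.01). NDUFA10, an accessory subunit over 133 kb, was at -0.59 (-0.69 to -0.48), with 2071 H3K4me3, 1246 H3K27me3 and 1643 input counts in DMSO and 2018, 1048 and 1941 counts in MAK683. At this depth, therefore, 0 members with at least 20 input counts showed H3K27me3 over its input level in DMSO. Outside the filter, NDUFAF3 had 19 H3K27me3 and 9 input counts in DMSO, a ratio of 0.81 with an interval of -0.32 to 2.22.

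A total of 3 members had 0 counts in a library, all of them for H3K27me3. NDUFA11 had 153 H3K4me3, 0 H3K27me3 and 2 input counts in DMSO and 131, 0 and 5 counts in MAK683. NDUFV2, a core subunit of complex I, had 47, 0 and 3 counts in DMSO and 22, 0 and 4 counts in MAK683. COX6A1 had 0 in DMSO and 1 in MAK683. A count of 0 allows up to 3 counts, or 0.157 CPM in DMSO and 0.225 CPM in MAK683. The input of these genes was as sparse, so the zeros do not separate them from the other members. In DMSO, 12 members had fewer than 5 input counts per kb, compared with a median of 11.7 over the members. Of these 12, 9 share over 50% of their span with another annotated gene. In all, 15 members share that much of their span, and 6 of them had 5 input counts per kb or more. The X-linked members NDUFA1, NDUFB11 and COX7B had 4.14, 3.83 and 5.29 input counts per kb.

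Near the threshold of the selection, NDUFA11, NDUFV2, COX6A1 and NDUFC2 entered with input counts of 2, 3, 4 and 6 in DMSO. The 5 names that had 0 input counts were NDUFB8, NDUFA9, COX8C, COX8A and NDUFA13. In H3K4me3, NDUFA13 had 27 counts with DMSO and 19 with MAK683, and COX8A had 5 and 3. The remaining 3 genes had 0 counts in all 6 libraries. COX8C and its partner COX8A are therefore not described as an isoform pair.

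After MAK683, H3K4me3 took a slightly smaller share of its library over most members. The change was the log2 ratio of CPM (counts scaled to an equal library total) in MAK683 to DMSO where 1 of the libraries reached 10 counts, as it did for all 65 members. The median was -0.22 (-0.26 to -0.16), and 61 of 65 members were lower, compared with a median of 0.0039 and 49.4% lower among 30028 genes. With median-of-ratios size factors 65 members and 69.0% of all genes were lower. Genes that carry H3K4me3 moved the same way. Among the 6328 H3K4me3-marked genes, the median was -0.19 and 85.2% were lower, and the 45 members in this group had a median of -0.24 with all 45 lower. The members were thus close to other H3K4me3-marked genes.

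Most changes in H3K4me3 were below 1.5-fold, by a count that depends on the scale. Of 65 members, 2 (3.08%) were at least 1.5-fold lower, compared with 4.86% of all genes, and 0 were at least 1.5-fold higher, compared with 10.0%. The number changed at least 1.5-fold in either direction was 13 over input, 8 with median-of-ratios size factors, 5 with the counts as deposited and 0 of the 50 members with over 50% of the span unshared. The counting interval of the share lay below the value set by the library totals for 43 members (66.2%), compared with 21.3% of all genes and 58.4% of H3K4me3-marked genes. It lay there for 33 of the 45 marked members. By complex, the median was -0.28 for the core subunits, -0.22 for the accessory subunits and -0.23 for the assembly factors of complex I, and -0.11 for complex II, -0.24 for complex III and -0.24 for complex IV.

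The largest decreases in H3K4me3 share were in complex I genes, at both low and high counts. The H3K4me3 counts of NDUFA2 (chr5:140018325-140027356), an accessory subunit of complex I, were 203 in DMSO and 106 in MAK683, a change of -0.81 (-1.18 to -0.47). Its H3K27me3 counts were 11 and 9 and its input counts 26 and 34. NDUFC2 had 142 and 91 H3K4me3 counts, 1 and 3 H3K27me3 counts and 6 and 4 input counts, a change of -0.52. NDUFB3 had 687 and 455 H3K4me3 counts, 93 and 56 H3K27me3 counts and 177 and 204 input counts, a change of -0.48 (-0.66 to -0.30). NDUFC1 was next at -0.47 (-0.60 to -0.35), with 1338 and 888 H3K4me3 counts. NDUFV2, with 47 and 22 H3K4me3 counts, was at -0.94 (-1.79 to -0.22). NDUFA2, NDUFC2 and NDUFV2 share most of their span with other annotated genes.

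The members with the highest change were long genes or tissue isoforms. COX7B2, with 1238 and 1293 H3K4me3 counts, was at 0.18 (0.06 to 0.30), and it was the 1 member whose interval lay above the library share. COX7A1 was also at 0.18, with 44 and 46 counts. NDUFA10 was at 0.08 (-0.01 to 0.17) and NDUFAF2 at 0.0045. Both COX7B2 and NDUFAF2 were below input in H3K4me3, so these counts were no higher than their share of input. Over input, H3K4me3 in DMSO and MAK683 gave nearly the same order of members (rho of 0.962, n = 60). In MAK683, 44 members were at least 2-fold above input, compared with 21.2% of all genes and 46.2% of protein-coding genes of 2 to 50 kb.

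H3K27me3 took a slightly larger share of its library over the members after MAK683. Of 59 members that passed the same limit, 44 were higher, compared with 58.1% of 29931 genes, and the median was 0.25 (0.14 to 0.35), compared with 0.09 over all genes and 0.20 over H3K4me3-marked genes. The total of the H3K27me3 library was lower in MAK683, and with the counts as deposited 51 of 65 members had at least as many counts in DMSO and the median was -0.28, compared with -0.44 over all genes. The difference between the members and all genes was 0.16 on either scale, as it must be, because a change of scale shifts all genes alike. With median-of-ratios size factors 32 members were higher and 27 lower, while 62.7% of all genes were lower. On the counts as deposited 11 members were higher and 47 lower, while 85.3% of all genes were lower. The direction thus depends on the scale, and the amount of H3K27me3 in the cells cannot be read from either.

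The members took 0.0677% of the H3K27me3 counts in DMSO and 0.0778% in MAK683, while their share of input was 0.126% and 0.124%. Over input, the median was -0.77 in MAK683, compared with -0.47 over all genes. Of 60 members, 46 were higher over input in MAK683 than in DMSO, compared with 58.0% of all genes. The members above input in MAK683 were NDUFA1 at 0.82 (-0.11 to 1.79) and COX6A2 at 0.23, on 23 and 7 H3K27me3 counts. The order of the members was not shared between treatments (rho of 0.016, n = 60). In DMSO the members lay in a narrow range (10th to 90th percentile -1.36 to -0.72) on a median of 78 H3K27me3 counts. How far counting error alone sets their order was not tested.

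Of 59 members, 10 were at least 1.5-fold higher in H3K27me3, compared with 11.7% of all genes, and 3 were at least 1.5-fold lower, compared with 7.25%. The counting interval lay above the library share for 15 members, compared with 22.7%, and below it for 3, compared with 13.6%. It reached the library share for 41 members. As shares of the members, these counts are 16.9%, 5.08%, 25.4% and 5.08%.

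Among members that reached 50 counts in DMSO or MAK683, NDUFA4 had the largest increase in share. Its H3K27me3 counts were 37 in DMSO and 58 in MAK683, a change of 1.16 (0.56 to 1.81), with 788 and 692 H3K4me3 counts and 125 and 124 input counts. UQCRH, a subunit of complex III, had 75 and 84 H3K27me3 counts, a change of 0.69 (0.22 to 1.16), with 1221 and 929 H3K4me3 counts and 142 and 215 input counts. COX6C had 121 and 128 H3K27me3 counts, a change of 0.61 (0.24 to 0.98), with 1169 and 964 H3K4me3 counts and 244 and 269 input counts. All 3 genes remained below input in MAK683, at -0.53 for NDUFA4, -0.79 for UQCRH and -0.51 for COX6C.

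The largest decrease in share among these members was in NDUFA8. Its H3K27me3 counts were 230 in DMSO and 114 in MAK683, a change of -0.48 (-0.82 to -0.16), with 968 and 785 H3K4me3 counts and 384 and 449 input counts. NDUFAF1 had 115 and 66 H3K27me3 counts, a change of -0.27 (-0.73 to 0.17), with 606 and 474 H3K4me3 counts and 176 and 244 input counts. At lower counts, the H3K27me3 count of NDUFAF3 was 19 in DMSO and 1 in MAK683, with 551 and 410 H3K4me3 counts and 9 and 7 input counts. COX5B had 21 and 7 and NDUFB10 20 and 8 H3K27me3 counts, and their intervals included no change.

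**Figure D4:**
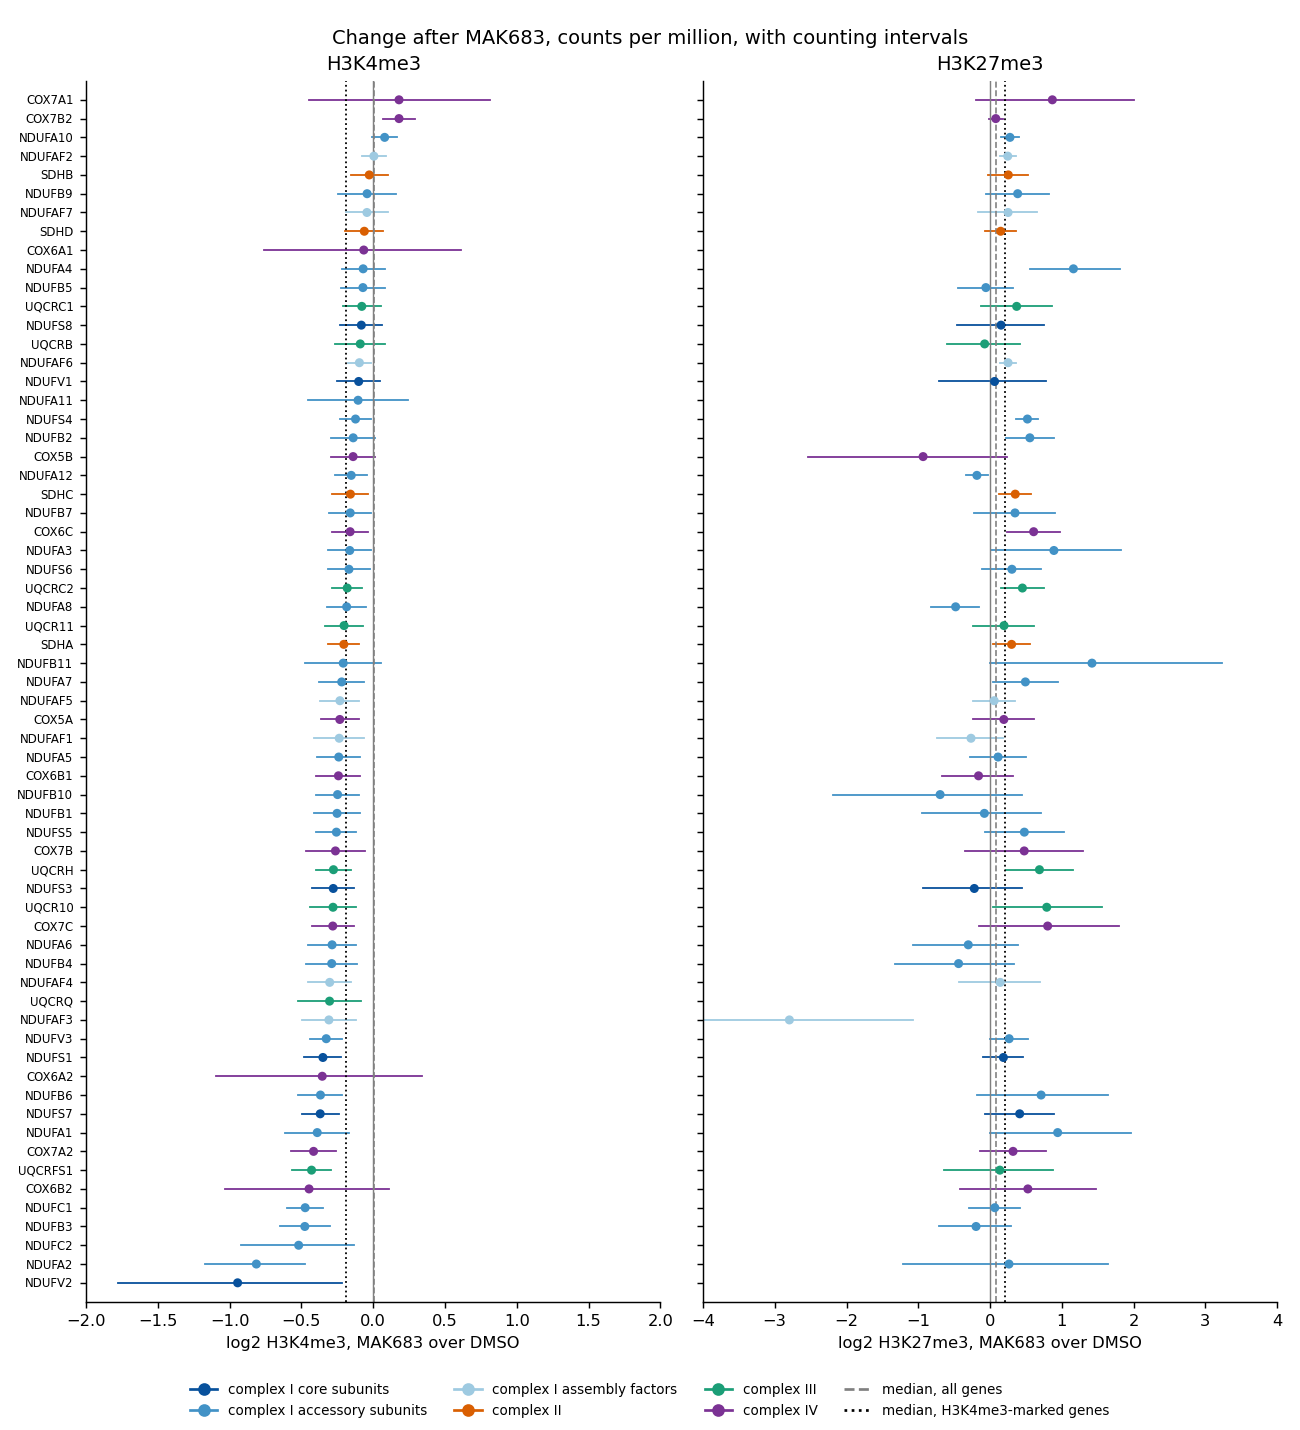
Log2 change of H3K4me3 and H3K27me3 in CPM after MAK683 for the members shown by name, with 95% counting intervals, in the order of the H3K4me3 change. The H3K4me3 points lie mostly left of 0 near the median of H3K4me3-marked genes at -0.19, the H3K27me3 intervals are wider with a median of 0.25 (-0.28 with the counts as deposited), and the lower end of the H3K27me3 interval of NDUFAF3 runs past the axis.

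Among genes outside the naming rule, some lists were near the members and others were not. Of 7 other genes of the chain, cytochrome c included, 5 (71.4%) were at least 2-fold above input in H3K4me3 in DMSO, compared with 22.2% of all genes. The median of the 7 was 2.44. CYC1, the cytochrome c1 subunit of complex III, was highest at 5.12, and COX4I2, an isoform of complex IV known from lung, was lowest at -0.85. NDUFA4L2, a relative of NDUFA4 known to be induced in hypoxia, was the 1 gene of these 7 above input in H3K27me3, at 0.13. In DMSO, H3K27me3 made up 55.5% (48.9% to 61.9%) of its H3K27me3 and input counts. That interval included the library share of 53.2%. The H3K27me3 counts of NDUFA4L2 were 132 in DMSO and 42 in MAK683. Its counts for H3K4me3 were 606 and 431, and in CPM the changes were -1.10 in H3K27me3 and -0.37 in H3K4me3. The other 6 genes were higher in H3K27me3 CPM, compared with 58.1% of all genes. Of the 7 genes, 4 were at least 1.5-fold higher, compared with 11.7% of all genes. The median of the 7 was 0.59, compared with 0.25 over the members, with each library scaled to its total. CYC1 was at 2.19 on 5 and 18 H3K27me3 counts, CYCS (cytochrome c) at 1.11 on 29 and 44, and COX4I2 at 0.75 on 46 and 54. COX4I1, a subunit of complex IV, was at 0.593 on 62 and 65, just over the 1.5-fold limit of 0.585. In H3K4me3 the median change of the 7 genes was -0.086, and 4 of 7 were lower.

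Of 33 other assembly factors that passed the filter, 23 (69.7%) were at least 2-fold above input in H3K4me3 in DMSO. In H3K27me3, 0 were above input, and the medians were 1.99 and -1.13. Over all genes these shares were 22.2% and 30.8%. The lowest in H3K4me3 was LYRM7 at -1.55 and the highest was COA3 at 4.96. Of 14 genes of ATP synthase, 10 (71.4%) were at least 2-fold above input in H3K4me3 and 0 were above input in H3K27me3, with medians of 2.35 and -1.17. The change in H3K4me3 after MAK683 had a median of -0.17 in the assembly factors and -0.24 in ATP synthase. In these lists, 29 of 35 and 14 of 15 genes were lower, compared with 49.4% of all genes.

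Regulators of the chain included genes above input in H3K27me3, at a lower rate than all genes. Of 13 regulators, 6 (46.2%) were at least 2-fold above input in H3K4me3 in DMSO, compared with 22.2% of all genes. In H3K27me3, 2 (15.4%) were above input in both treatments, compared with 30.8% of all genes in DMSO. ESRRG, a nuclear receptor, was at 0.94 in DMSO, with 16062 H3K27me3 and 7341 input counts in DMSO and 10225 and 8552 in MAK683. PPARGC1A, the coactivator PGC-1α, was at 0.25, with 1994 and 1470 counts in DMSO and 1453 and 1685 in MAK683. After MAK683 the median change of the 13 genes was -0.067 in H3K4me3, with 10 lower, and 0.25 in H3K27me3, with 11 higher. Among all genes, 49.4% were lower in H3K4me3 and 58.1% were higher in H3K27me3. The genes of the factors whose letters were searched in the promoters, NRF1, GABPA, GABPB1 and YY1, were at -1.03, -1.35, -1.16 and -1.07 in H3K27me3 over input in DMSO.

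Pseudogenes named after the members had few counts in H3K4me3 and in input. Of 96 such rows, 89 had fewer than 10 H3K4me3 counts in DMSO and 8 reached 20 input counts. The median H3K4me3 count over all genes was 10 in DMSO. In DMSO input, 54 of the 96 rows had 0 counts, and the median length of the 94 rows with a known span was 0.32 kb. The 2 rows with at least 100 H3K4me3 counts were the SDHA copies SDHAP1 and SDHAP3.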

How the data were processed

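ChIP-seq libraries of H3K27me3, H3K4me3 and input from G401 cells were used, 1 for each treatment. Per the labels and the study's methods, the authors trimmed paired reads (Trim Galore 0.4.4), aligned them to hg19 (Bowtie2), removed repeat sequences (Picard 2.23.6) and counted reads per gene with featureCounts. The deposited table holds whole-number counts for 56638 genes. The gene annotation and the counted features are not given in the sources used here. The methods describe scaling by a Drosophila spike-in, and whether the deposited counts include it is not given in the sources used here. A count over a whole gene mixes promoter signal with background along the gene, and reads in overlapping genes may be left unassigned.

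Members were matched by symbol to GENCODE release 44 on GRCh37 (65 of 65). Log2 ratios used 1 added count and library totals. Genes needed 20 input counts over both treatments for ratios to input and 10 counts in 1 library for changes. Shares have exact Clopper-Pearson 95% intervals, which cover counting error only, and medians have intervals from binomial ranks (Python 3.11.15, numpy 2.4.6, pandas 2.3.3, scipy 1.17.1, matplotlib 3.10.9). The computation was tested on simulated data. With 1 library per group no test between treatments was possible. The members and lists were chosen with earlier results of these data known, and H3K4me3-marked genes and the length classes were defined after seeing the data. Counts of all 6 libraries are given for the extremes of each complex in H3K4me3, the 5 highest in H3K27me3, the 3 largest differences each way per mark among genes with 50 counts, isoform pairs and genes at 0. The values of 1 gene are not reported here on its own. Other members were named after their values were seen. Alternatives were other scales between libraries, other filters, pseudocounts and thresholds, values over input, genes with unshared spans, genes with at least 10 input counts per kb, and leaving out tissue isoforms, the last 2 chosen after seeing the data.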

Additional observations from a re-analysis of the deposited data

How the results depend on the processing

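Of 85 alternative values, 66 moved little, 18 moved beyond the limits set for them and 1 reversed. The median change in H3K27me3 over the members reversed to -0.28 with the counts as deposited and was 0.043 with median-of-ratios size factors. The median change in H3K4me3 was -0.34 and -0.41 on these scales, and the median change in input was 0.22 with the counts as deposited. Such scales shift all genes alike, and the members differed from all genes by 0.16 in H3K27me3 and by -0.22 in H3K4me3 on each of them. With median-of-ratios size factors, 2 members were above input in H3K27me3 in DMSO and the median was -0.64. Without a filter, 1 member was above input. At 4-fold in place of 2-fold, 26 members were above input in H3K4me3.

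Members at least 1.5-fold changed in H3K27me3 numbered 13, and 3 with a stricter filter on counts, 3 at a 2-fold threshold and 8 with at least 10 input counts per kb. Those changed in H3K4me3 numbered 2, and 5 with the counts as deposited, 8 with median-of-ratios size factors, 1 with a stricter filter and 13 over input. They numbered 0 where over 50% of the span was unshared, 0 at a 2-fold threshold and 0 with at least 10 input counts per kb. The cause of these shifts was not tested. No paired analysis was possible because each group had 1 library. The depth limits H3K27me3 most, where members had a median of 78 counts in DMSO and 58 in MAK683.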
